A study of Malus domestica with 12 samples.

Results

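Small RNAs of apple buds were compared between late ecodormancy (Stage 4, libraries J to L, 1395 chilling hours) and early ecodormancy (Stage 3, libraries G to I, 1280 chilling hours). The 6 libraries were those that the sample labels place at these stages, out of 12 libraries in the series. The other 6 came from early endodormancy (Stage 1, libraries A to C, 665 chilling hours) and late endodormancy (Stage 2, libraries D to F, 1098 chilling hours) and shared the statistical model. All libraries were made from apical floral buds of short shoots of orchard-grown Malus domestica "Golden Delicious" trees in a single winter, each from a pool of buds of several trees, without any treatment beyond the natural winter. Whole buds were used, so fewer cells of a type and less small RNA per cell cannot be told apart. Each stage was a single sampling date, so a stage and its date cannot be told apart either. Small RNAs were isolated with TraPR, a column that retains small RNAs bound to ARGONAUTE (AGO) proteins. Of 370 distinct mature sequences in the count tables, 336 had at least 1 read in the 6 ecodormancy libraries, and 238 passed the filter on low counts and were tested. The other 132 sequences were not tested.

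An endodormant bud does not resume growth even when it is placed in warmth, whereas an ecodormant bud has met its need for cold and is held back by low temperature alone. The interval between early and late ecodormancy is therefore the last part of winter before budbreak. Plant miRNAs are cut from hairpin precursors by DICER-LIKE proteins, are mostly 21 nucleotides long and guide AGO proteins to complementary mRNAs, which are cleaved or left untranslated. Small RNAs of 24 nucleotides mostly act through DNA methylation of transposons and repeats.

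The Stage 3 libraries held from 561723 mature reads in library H to 1498997 in library G, and the Stage 4 libraries from 572804 in library J to 2307267 in library L. Levels are given as CPM, the reads of a sequence per 1000000 reads after TMM scaling, and a count of 0 allowed up to 3 reads, which is 1.73 to 3.69 CPM in these libraries. PCR copies could not be told from separate molecules, so such limits cover counting error only. Library L stood apart at Stage 4, with 191 sequences detected where J and K had 253 and 276. Library L was the lowest of its stage for 135 of the 238 sequences tested (56.7%), and library H the lowest of Stage 3 for 102 (42.9%). The fits without H, without L and without both are given further below. Libraries of a stage differed by far more than sampling noise, with a chi-square per degree of freedom of 90.4 to 242 between pairs at Stage 3 and 24.8 to 555 at Stage 4.

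The sequences on which the comparison turns are shown from 5′ to 3′, in the DNA letters of the count tables, with the seed (bases 2 to 8, which lead the pairing with a target) in capitals. Those at a higher level at Stage 4 come before those at a lower level, and members with a shared seed stand together.
t11329296_x5768: tATATGGAgggaaatatggtg
mdm-miR390e: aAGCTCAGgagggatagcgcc
ptc-miR159d: cTTGGATTgaagggagctcct
t00370463_x599: aTCCCGTGatcgtgaccgttcatc
t05771720_x1275: aAATAATTtctgactgtacgatgt
mdm-miR858: tTCGTTGTctgttcgacctga
ath-miR858b: tTCGTTGTctgttcgaccttg
mdm-miR7121e: tCCTCTTGgtgatcgccctgc
mdm-miR7121c: tCCTCTTGgtgatcgccctgt
mdm-miR482b: tCTTTCCTatccctcccattcc
mdm-miR482c: tCTTTCCTaaccctcccattcc
mdm-miR159d: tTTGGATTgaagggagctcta
mes-miR319h: cTTGGACTgaagggagctcct
mdm-miR171b: tTGAGCCGcgtcaatatctcc
mdm-miR164c: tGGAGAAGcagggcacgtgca
t08515395_x8579: cACTTGCTccccttctccaac
t05229383_x4081: cTTGCATAtctcaggagctgc
mtr-miR4414a-5p: aGCTGCTGactcgttggttca
t03063567_x79: aGCTGCCGactcattcattca
t00205877_x43290: aCGGTGATaaatagggtagtgagc
t00969484_x10829: gTGTCTGAgaggtaaaaaggggtg
peu-miR2910: tAGTTGGTggagcgatttgtc

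A single small RNA, t11329296_x5768, passed the test between the stages, and it was higher at late ecodormancy. It was measured at 332 CPM in library G, 137 in H and 246 in I at Stage 3, and at 999 CPM in J, 1009 in K and 1540.3 in L at Stage 4. Each Stage 4 library was above each Stage 3 library. The means were 238 ± 97.8 and 1183 ± 310 CPM (SD, n = 3 each), a log2 fold change of 2.31 with a standard error of 0.48 (edgeR's quasi-likelihood test, Benjamini-Hochberg adjusted p = 0.0188). It was the only sequence called, 0.42% of the 238 tested. The lowest estimate with a single library left out was 2.20 and the highest 2.65, but the adjusted p was 0.0846 without library I, 0.0620 without K and 0.0777 without L. With the libraries scaled by the total reads that the study lists for each, its adjusted p was 0.0737, and mdm-miR858 and mdm-miR7121e were the 2 sequences called in its place (adjusted p = 0.0357 each in the same test). At endodormancy the same small RNA had stood at means of 30.0 CPM at Stage 1 and 20.1 CPM at Stage 2, below each ecodormancy library.

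t11329296_x5768 has no miRNA name in the tables, is 21 nucleotides long and begins with U. The study's folding predicted no optimal stem-loop for it. The study therefore discarded it, together with t05229383_x4081 and t00969484_x10829, before its later analyses. The single locus of t11329296_x5768 lies on the plus strand at chr8:11111445-11111630 of the apple genome GDDH13 v1.1. In the deposited hairpin, the sequence on the 3′ arm is that of a named apple miRNA, mdm-miR10987, which the databases list. t11329296_x5768 is the 5′ arm. Whether this locus is the listed precursor of mdm-miR10987 was not examined. The deposited precursor is printed here with both arms in capitals, because the name belongs to the arm that was hardly detected.
t11329296_x5768 precursor: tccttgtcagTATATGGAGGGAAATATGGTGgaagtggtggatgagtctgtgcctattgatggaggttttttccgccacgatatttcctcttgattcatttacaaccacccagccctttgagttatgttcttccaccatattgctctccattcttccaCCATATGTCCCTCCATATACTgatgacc
The number that ends the name of the unnamed 5′ arm is its read count over the 12 libraries, whereas mdm-miR10987 had 15 reads, of which 5 were in library F and 10 in library I. mdm-miR10987 had 0 reads in each of the Stage 4 libraries, where the floor of 3 reads is 2.03 to 3.09 CPM, and it was too rare to be tested.

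**Figure D1:**
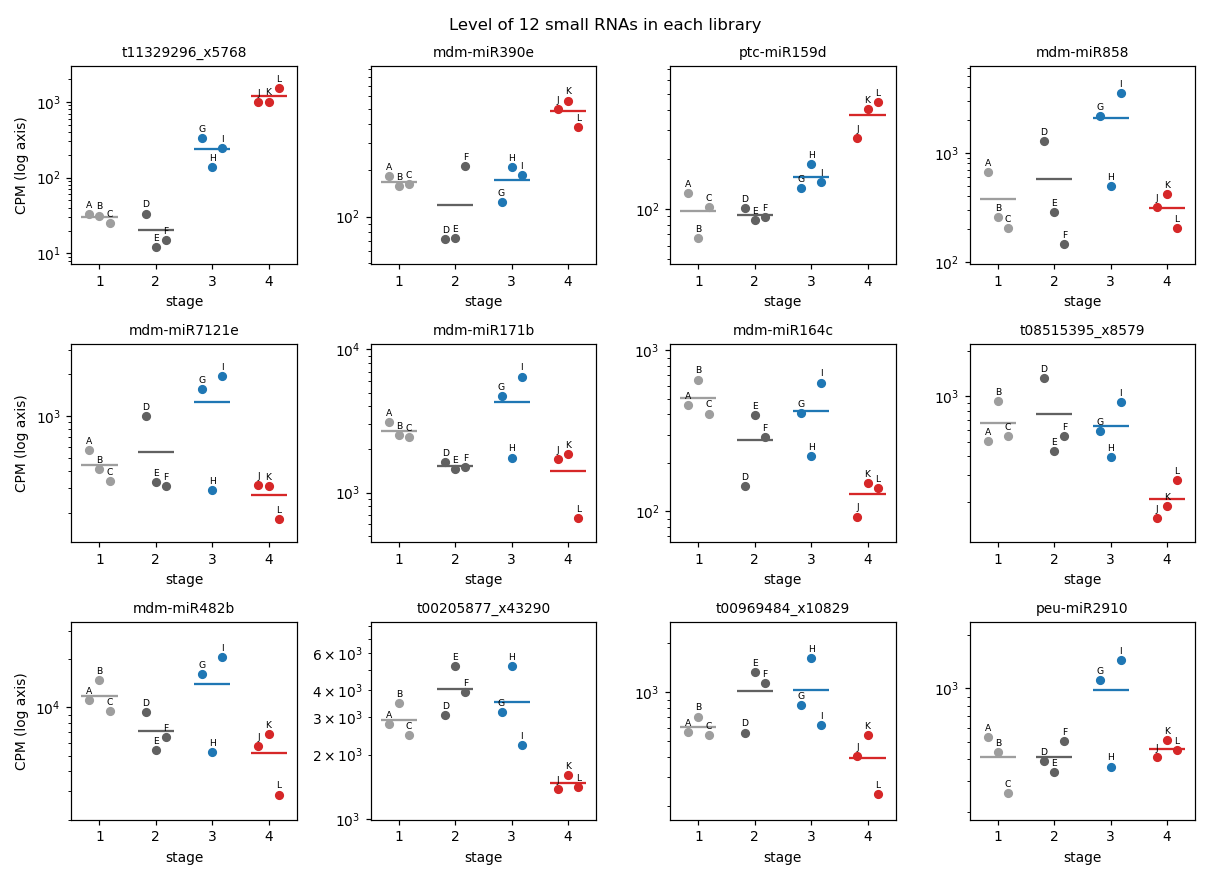
Level of 12 small RNAs in each library, in CPM on a logarithmic axis, against the stage. Points are libraries, marked with their letters, and bars are the means of 3 libraries. t11329296_x5768 lay between 137 and 332 CPM at Stage 3 and between 999 and 1540.3 CPM at Stage 4, while most of the small RNAs that were lower at Stage 4 had libraries G and I high and H near the Stage 4 level.

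By the unadjusted p, 28 of the 238 sequences (11.8%) were at 0.05 or less, with 7 higher at Stage 4 (2.94%) and 21 lower (8.82%). These are called nominally higher and nominally lower below. The 3 libraries of a stage did not overlap with those of the other for 30 sequences (12.6%), with Stage 4 above for 11 (4.62%) and below for 19 (7.98%). The split between higher and lower depended on the scaling. It was 11 and 20 with median-of-ratios factors, 4 and 15 with the total of mature reads, 4 and 27 with the study's total reads, and 20 and 4 with the mature reads outside the miR166 family. The last scaling moved the median log2 fold change of all sequences from 0.01 to 0.57, the study's total reads moved it to -0.24 and median-of-ratios factors to 0.12. The level differences below are those of the TMM scaling, and apart from t11329296_x5768 none of them passed the adjusted threshold.

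**Figure D2:**
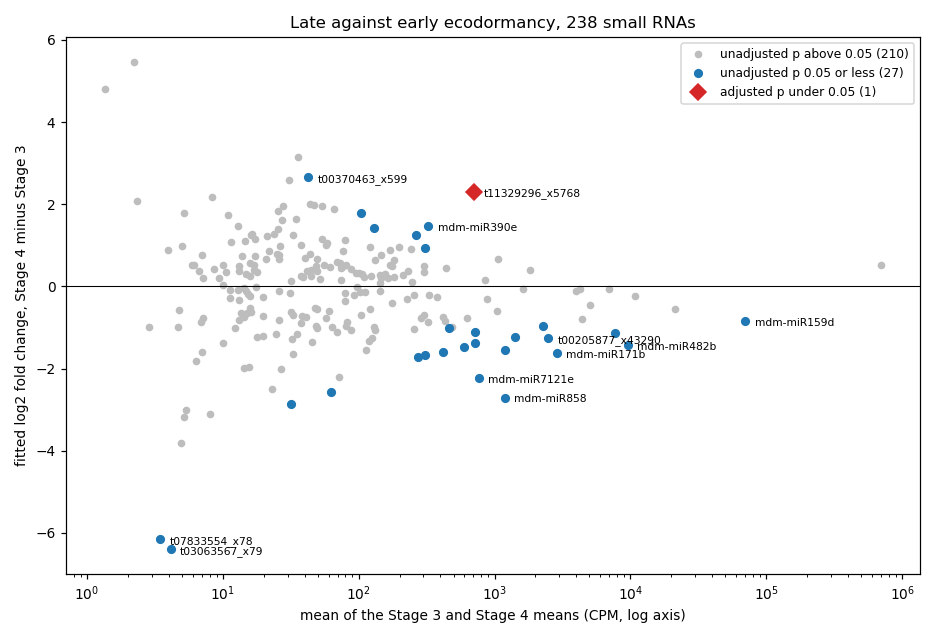
Fitted log2 fold change of Stage 4 over Stage 3 against the mean level in CPM (logarithmic axis) for the 238 small RNAs tested. The diamond is t11329296_x5768, with a log2 fold change of 2.31, and the 27 blue points were nominally higher or lower, among them mdm-miR858 at -2.71. The points for t03063567_x79 and t07833554_x78, with 0 reads at Stage 4, depend on the prior count of the fit.

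Among the other 6 sequences that were nominally higher, mdm-miR390e had the smallest p. miR390, in Arabidopsis, is loaded into AGO7 and starts the production of small interfering RNAs from TAS3 transcripts, which act on auxin response factors. Its level was 124 CPM in library G, 210.5 in H and 186 in I, and 495 in J, 563 in K and 380 in L. The stages did not overlap, with means of 174 ± 44.4 and 479 ± 92.6 CPM (SD, n = 3 each). The log2 fold change was 1.47 with a standard error of 0.49 (edgeR's quasi-likelihood test, adjusted p = 0.126). The same sequence stems from 4 loci, on chromosomes 3, 4, 11 and 12, whose reads cannot be told apart. The sum of the miR390 family, 6 sequences, was higher by 1.56. The family kept a positive sign under each scaling, between 1.24 and 1.96.

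ptc-miR159d, a variant of miR159, which represses GAMYB-like MYB transcription factors in Arabidopsis, was at 133, 187 and 146 CPM in libraries G, H and I and at 269, 404 and 443 CPM in J, K and L. The stages did not overlap, and the log2 fold change was 1.26 with a standard error of 0.47 (edgeR's quasi-likelihood test, adjusted p = 0.205). This sequence contains the 20 bases of mdm-miR159a and is identical to mes-miR319h at 20 of 21 positions, so reads may be shared between them. When sequences that contain one another or differ by a single base were merged, it fell into a chained block of 33 sequences. That block also held the far more abundant mdm-miR159d and mdm-miR319a. Its log2 fold change of -0.60 is that of the whole block and gives no value for ptc-miR159d with its nearest relatives. mdm-miR159a itself, which was far more abundant, stood at 14763 CPM in G, 6120.0 in H and 14133 in I, and at 8239 in J, 7030 in K and 14373 in L. Its stages overlapped widely, with a log2 fold change of -0.24 and an adjusted p of 0.910 in the same edgeR test.

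Of the unnamed 24-nucleotide small RNAs, t00370463_x599 and t05771720_x1275 were nominally higher at Stage 4, without overlap. t00370463_x599 comes from the minus strand of chromosome 9 and rested on 7, 21 and 9 reads in libraries G, H and I and on 55, 87 and 140 reads in J, K and L. Its mean was 11.9 ± 12.1 CPM at Stage 3 and 73.6 ± 19.5 CPM at Stage 4 (SD, n = 3 each). Stages 1 and 2 had stood between these, at means of 29.1 and 48.6 CPM, so Stage 3 was the lowest of the 4 stages. t05771720_x1275 was at 67.7, 64.0 and 8.24 CPM at Stage 3, where library I was far below the others, and at 191, 209 and 86.1 CPM at Stage 4. mdm-miR7126-3p and hbr-miR166a completed the 7, and in both the difference came largely from library L. mdm-miR7126-3p had 64.0 and 83.2 CPM in J and K and 423 CPM in L, where Stage 3 ranged from 50.1 to 83.3 CPM. hbr-miR166a had 250 and 346 CPM in J and K and 612 CPM in L, where Stage 3 ranged from 158 to 253 CPM. Without library L their log2 fold changes went from 1.41 to 0.15 and from 0.94 to 0.63, and neither was nominally higher (edgeR's quasi-likelihood test, unadjusted p = 0.788 and 0.183).

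A further small RNA is described because it was nearly absent at Stage 1, and it was picked after its values were seen. t10036822_x303, a 21-nucleotide sequence of chromosome 16, had 0, 4 and 26 reads in libraries G, H and I and 51, 54 and 145 reads in J, K and L. These are 0, 4.92 and 16.5 CPM against 52.6, 42.8 and 98.3 CPM, without overlap. Its log2 fold change of 3.16 had a standard error of 1.60 (edgeR's quasi-likelihood test, unadjusted p = 0.0609, adjusted p = 0.426).

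The 21 sequences that were nominally lower at Stage 4 included miRNAs known to act on MYB, NAC and GRAS transcription factors and on immune receptors. For most of them libraries G and I were high and library H lay close to the Stage 4 libraries. H was the lowest Stage 3 library for 18 of the 21 (85.7%), against 42.9% over all sequences tested. Of the 19 that had any read at Stage 4, the ratio to the Stage 4 mean had a median of 2.65 in library G, 1.25 in library H and 4.05 in library I. Library G was at 2 times the Stage 4 mean or more for 18 of the 19, library I for 17 and library H for 3. The 19 were picked as lower at Stage 4, so high ratios in most Stage 3 libraries follow from that choice.

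**Figure D3:**
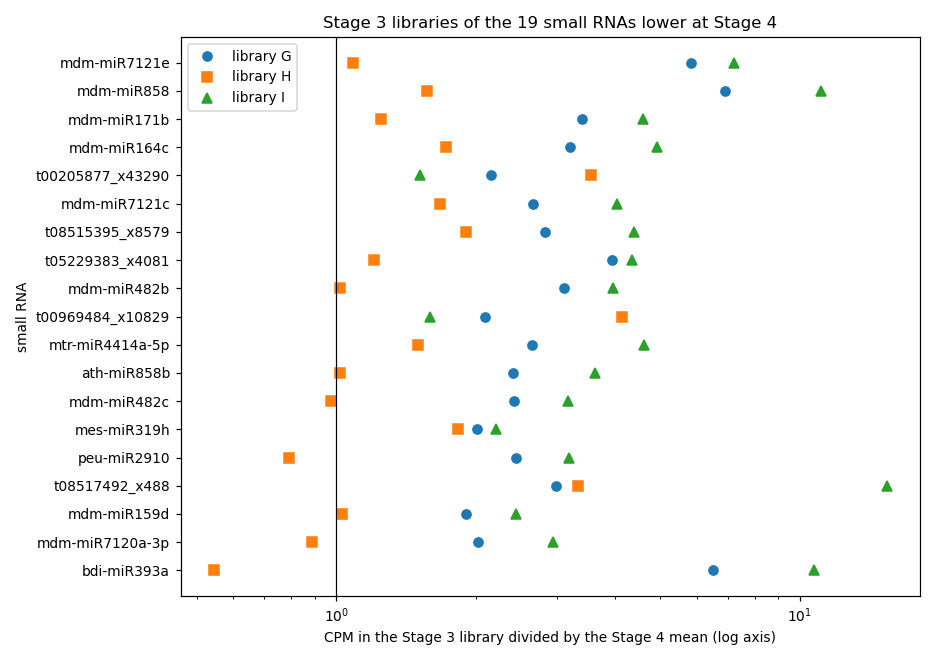
Level in each Stage 3 library divided by the Stage 4 mean, on a logarithmic axis, for the 19 small RNAs that were nominally lower at Stage 4 and had Stage 4 reads. Squares are library H, whose ratio was 1.09 for mdm-miR7121e and 4.13 for t00969484_x10829, and the vertical line marks the Stage 4 mean.

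mdm-miR858 had the largest log2 fold change of those with Stage 4 means above 100 CPM. miR858 represses MYB transcription factors of the flavonoid pathway in Arabidopsis. Its level was 2186 CPM in library G, 496 in H and 3520.1 in I, and 318.8 in J, 423 in K and 206 in L. The stages did not overlap, though H was much nearer to K than to G. The log2 fold change was -2.71 with a standard error of 0.71 (edgeR's quasi-likelihood test, adjusted p = 0.0798). ath-miR858b, identical to it at 19 of 21 bases and with the same seed, had a mean of 1977 ± 1097 CPM at Stage 3 and 841 ± 405 CPM at Stage 4 (SD, n = 3 each). Its stages overlapped, because H at 857 CPM was below K at 906 and J at 1210.0 CPM. Of the other members tested, aly-miR858-5p had means of 14.5 and 1.59 CPM and ppe-miR858 51.6 and 71.5 CPM, so the 4 sequences did not all lie on the same side.

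mdm-miR7121e and mdm-miR7121c belong to a family of apple and other Rosaceae and differ from each other at the last of their 21 bases. mdm-miR7121e was at 1569 CPM in G, 293 in H and 1943 in I, and at 316, 310.0 and 181 CPM in J, K and L. Library H lay among the Stage 4 libraries. Its log2 fold change was -2.24 with a standard error of 0.58 (edgeR's quasi-likelihood test, adjusted p = 0.0798). mdm-miR7121c was at 832, 524 and 1268 CPM at Stage 3 and at 379, 254 and 307 CPM at Stage 4, without overlap, with a log2 fold change of -1.48. The loci cluster on the plus strand of chromosome 2 of GDDH13 v1.1, at chr2:1735508-1735621 and chr2:1894439-1894531 for mdm-miR7121e and at chr2:1751063-1751150 for mdm-miR7121c. Between the nearest precursors there are 15441 bases.

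mdm-miR171b, whose Arabidopsis relatives repress the GRAS-domain HAIRY MERISTEM factors of shoot meristems, was at 4753 CPM in G, 1755 in H and 6461 in I. At Stage 4 it was at 1704 in J, 1848 in K and 660 in L, so H lay between J and K. The log2 fold change was -1.62 with a standard error of 0.44 (edgeR's quasi-likelihood test, adjusted p = 0.0856). Its precursor lies at chr17:8330520-8330613 on the minus strand. Of the other 3 family members tested, mdm-miR171i had means of 117 and 25.3 CPM, mdm-miR171e of 170.9 and 86.9 CPM and mdm-miR171j of 19.2 and 32.4 CPM, and none was nominally higher or lower.

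mdm-miR164c has Arabidopsis relatives that restrain NAC-domain factors of the CUP-SHAPED COTYLEDON group, which set the boundaries of organs. It was at 408, 220 and 630.5 CPM in libraries G, H and I and at 92.8, 151 and 140 CPM in J, K and L. The stages did not overlap, and the log2 fold change was -1.71 with a standard error of 0.49 (edgeR's quasi-likelihood test, adjusted p = 0.0894). The unnamed t08515395_x8579 is, by the deposited hairpin at chr12:29101808-29101937, the 3′ arm opposite the mdm-miR164c sequence. It was at 587, 396 and 914 CPM at Stage 3 and at 156.8, 188 and 279 CPM at Stage 4, again without overlap, with a log2 fold change of -1.61 (adjusted p = 0.0899 in the same edgeR test). Both arms had I as the highest library and H as the lowest of Stage 3, and both were lower at Stage 4 than at Stages 1 and 2, whose means were 506 and 276 CPM for mdm-miR164c and 661 and 765 CPM for t08515395_x8579. The mdm-miR164c sequence also occurs at 4 further loci, on chromosomes 3, 4 and 12.

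mdm-miR482b and mdm-miR482c, 22-nucleotide miRNAs of a family that targets NLR immune receptor transcripts in many plants, differ at a single base and lie on the minus strand of chromosome 13, 10964 bases apart. mdm-miR482b was at 16030 CPM in G, 5267 in H and 20413 in I, and at 5770 in J, 6847 in K and 2864 in L. H was below J and K. The log2 fold changes were -1.43 and -1.13, with standard errors of 0.45 and 0.43 (edgeR's quasi-likelihood test, adjusted p = 0.0991 and 0.229). The family's mdm-miR482d was near equality, with means of 4133 CPM at Stage 3 and 3802 CPM at Stage 4.

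mdm-miR159d, the most abundant member of the miR159 family, was at 96152 CPM in G, 51743 in H and 123178 in I, and at 36895, 55559 and 58536 CPM in J, K and L. Its log2 fold change was -0.84 with a standard error of 0.37 (edgeR's quasi-likelihood test, unadjusted p = 0.0327, adjusted p = 0.335). t05229383_x4081 comes from the same hairpin on chromosome 14, where both precursors start at base 31363297 of the plus strand. It was at 579, 177 and 639 CPM in G, H and I and at 184, 155 and 102 CPM in J, K and L. Here too H lay among the Stage 4 libraries, and the log2 fold change was -1.66 (adjusted p = 0.0967 in the same edgeR test). mes-miR319h, of the miR319 family that acts on TCP factors of leaf growth, was more even within the stages, at 616, 563 and 679 CPM against 339, 286 and 294 CPM, without overlap, with a log2 fold change of -1.01.

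The remaining named sequences of this kind were mtr-miR4414a-5p, mdm-miR7120a-3p and bdi-miR393a. mtr-miR4414a-5p was at 1611, 915 and 2807 CPM at Stage 3 and at 974, 563 and 287 CPM at Stage 4, so J exceeded H. mdm-miR7120a-3p had means of 2998 and 1536 CPM and a log2 fold change of -0.97, again with H below J and K. bdi-miR393a, whose Arabidopsis relatives silence the TIR1 and AFB auxin receptors, was at 117, 9.85 and 194 CPM in G, H and I and at 11.3, 23.8 and 19.0 CPM in J, K and L. Here H was below all 3 Stage 4 libraries. The family's mdm-miR393c had a log2 fold change of -0.76 at an unadjusted p of 0.0920 in edgeR's quasi-likelihood test.

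peu-miR2910, a fragment of 18S ribosomal RNA that databases list as a miRNA, followed the pattern of libraries G and I high and H low. It was at 1116 CPM in G, 361 in H and 1452 in I, and at 408, 511 and 449 CPM in J, K and L. The log2 fold change was -1.10 with a standard error of 0.46 (edgeR's quasi-likelihood test, adjusted p = 0.299). It was the 1 tested sequence of the 4 ribosomal fragments in the tables, and the other 3 had no read in the 6 libraries. The fragments made up 0.052% to 0.169% of mature reads at Stage 3 and 0.029% to 0.069% at Stage 4. This sign of RNA quality was lowest in H among the Stage 3 libraries. H was the lowest Stage 3 library for 18 of the 21 nominally lower sequences (85.7%), peu-miR2910 among them, against 42.9% of all tested. The other named ones were mdm-miR858, ath-miR858b, mdm-miR7121e, mdm-miR7121c, mdm-miR171b, mdm-miR164c, mdm-miR482b, mdm-miR482c, mdm-miR159d, mes-miR319h, mtr-miR4414a-5p, mdm-miR7120a-3p and bdi-miR393a. The unnamed ones were t08515395_x8579, t05229383_x4081, t03063567_x79 and t07833554_x78. H was not the lowest for t00205877_x43290, t00969484_x10829 and t08517492_x488. The part of RNA quality in these differences was not tested.

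Without library H, 10 sequences had an adjusted p under 0.05 in edgeR's quasi-likelihood test, with 17 nominally higher and 21 nominally lower. Among the 10 were t11329296_x5768, mdm-miR390e and t00370463_x599 on the higher side and mdm-miR858, mdm-miR7121e, mdm-miR171b, mdm-miR164c, t05229383_x4081 and mdm-miR482b on the lower side. Without both H and L there were 18, and peu-miR2910, mdm-miR7121c, t08515395_x8579, ath-miR858b and mdm-miR482c were among them. Without I, K or L alone there were 0, with 17, 25 and 21 sequences nominally higher or lower. Without library L, mdm-miR7120a-3p, mdm-miR482c, ath-miR858b and mtr-miR4414a-5p were no longer nominally lower, with log2 fold changes of -0.47, -0.65, -0.73 and -1.02. Nor were mes-miR319h, peu-miR2910, t08517492_x488, bdi-miR393a, t03063567_x79 and t07833554_x78 (edgeR's quasi-likelihood test, unadjusted p from 0.0539 to 0.0865). Without library H, mes-miR319h and hbr-miR166a were at log2 fold changes of -0.80 and 1.06. Their unadjusted p in the same test was 0.0719 and 0.0521.

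A pair of 24-nucleotide small RNAs was lower at Stage 4 in a different way, with library H as the highest of Stage 3. t00205877_x43290 was at 3158 CPM in G, 5186 in H and 2227 in I, and at 1375, 1604 and 1414 CPM in J, K and L. The Stage 4 libraries were close together and below the others, with means of 3523 ± 1513 and 1464 ± 122 CPM (SD, n = 3 each). Stages 1 and 2 were also higher, at means of 2922 and 4067 CPM. The log2 fold change was -1.27 with a standard error of 0.37 (edgeR's quasi-likelihood test, adjusted p = 0.0894). t00969484_x10829 was at 830, 1633 and 631 CPM at Stage 3 and at 406, 545 and 235 CPM at Stage 4, without overlap, with a log2 fold change of -1.38 (adjusted p = 0.126 in the same edgeR test). The loci lie at chr7:29787418-29787568 and chr6:4829437-4829567, both on the plus strand and both with the small RNA on the 3′ arm. Neither followed peu-miR2910, which was lowest in H. Without library H the log2 fold changes were -0.63 and -0.66, and neither was nominally lower (edgeR's quasi-likelihood test, unadjusted p = 0.0737 and 0.123).

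t03063567_x79 and t07833554_x78 were not detected at Stage 4. t03063567_x79 had 18, 2 and 19 reads in libraries G, H and I and 0 in J, K and L, which makes it at least 11.7-fold lower against a floor of 3 reads over the 3 Stage 4 libraries. t07833554_x78 had 24, 0 and 11 reads at Stage 3 and 0 at Stage 4, at least 10.5-fold lower on the same floor, and library H overlapped with Stage 4. When similar sequences were merged, t03063567_x79 fell into a block of 3 sequences with mdm-miR319d and t03187209_x304, so reads may be shared between them. t03063567_x79 also resembles mtr-miR4414a-5p, with the same base at 17 of 21 positions. Both come from within miR319 hairpins, since each of the 2 precursors of t03063567_x79 overlaps a precursor of mdm-miR319a and that of mtr-miR4414a-5p overlaps a precursor of cme-miR319c, on the same strands. t08517492_x488, with 40, 21 and 189 reads at Stage 3 and 8, 19 and 0 at Stage 4, comes from chr9:2848102-2848185, in a cluster on the plus strand with the precursor of mdm-miR3627b, 96 bases after it, and that of mdm-miR5225c, 3131 bases after it. mdm-miR3627b had 0 reads at Stage 3 and 1, 9 and 0 reads in libraries J, K and L. mdm-miR5225c was at 5947, 1516 and 5635 CPM at Stage 3 and at 3284, 5806 and 3443 CPM at Stage 4, with a log2 fold change of -0.06 (edgeR's quasi-likelihood test, adjusted p = 0.939).

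The 20 small RNAs that the study took as differentially expressed with both of its packages were chosen on these libraries, so their share is not independent evidence. From these the study later discarded t11329296_x5768, t05229383_x4081 and t00969484_x10829 because of their predicted folding. In this contrast, 3 of the 20 were nominally higher and 14 nominally lower at Stage 4, and the median log2 fold change was -1.32 where that of all sequences was 0.01. The other 3 were mdm-miR5225c, mdm-miR159a and sit-miR05-npr. sit-miR05-npr had means of 250 and 355 CPM, with library L at 572 CPM.

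By function, the families are given by their counts and medians, beside 119 of the 238 sequences tested that had a lower fitted level at Stage 4. Near-identical members of a family can share reads, so a count of members is not a count of independent differences. The medians stayed the same when the 4 sequences with 0 reads in a whole stage were set at their bounds. The MYB regulators miR159 and miR858 had 16 of 21 sequences tested, of which 13 had a lower fitted level, 1 was nominally higher and 3 nominally lower, with a median of -0.69. Under the scaling outside miR166, 9 of 14 were lower with a median of -0.06, and without library L 10 of 17 were lower with a median of -0.46. For meristem and organ patterning (miR164, miR166, miR171, miR319 and miR396) 42 of 82 sequences were tested and the median was -0.06, with 1 nominally higher and 3 nominally lower. Within it the families lay on different sides. All 12 miR319 sequences tested had a lower fitted level, with a median of -0.68, although 6 of the 12 did under the scaling outside miR166. The most abundant miR319, mdm-miR319a, was near equality at means of 7051 and 6756 CPM. Of the 16 miR166 sequences, which guide the repression of HD-ZIP III factors, 15 had a higher fitted level with a median of 0.45, but without libraries H and L 9 of 18 were lower. The 9 tested miR396 sequences, which repress growth-regulating factors, had a median of -0.10.

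**Figure D4:**
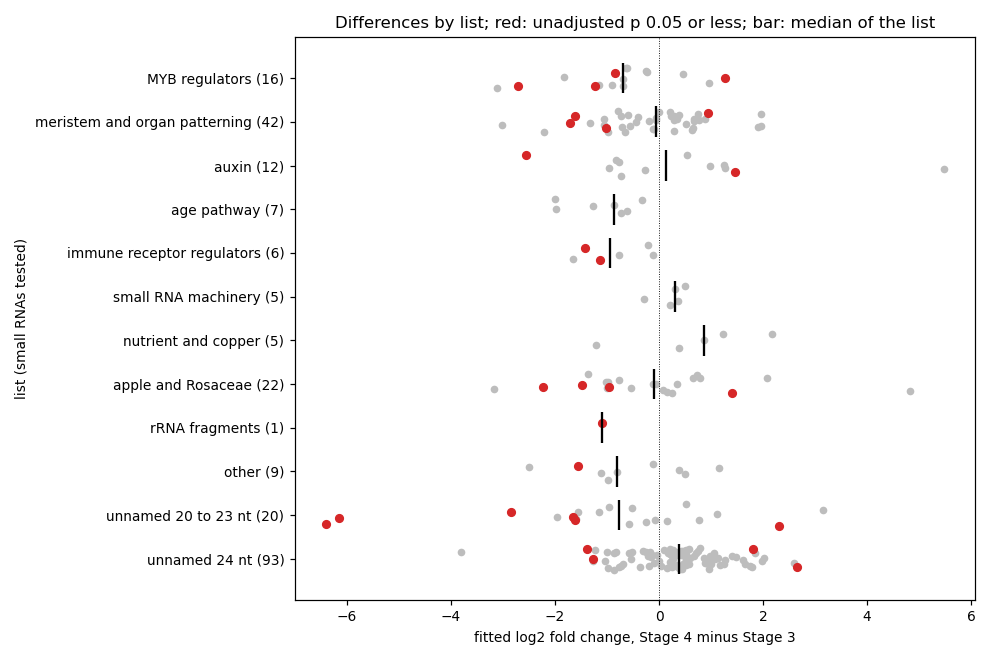
Fitted log2 fold change of Stage 4 over Stage 3 for each small RNA tested, by list. Red points were nominally higher or lower, vertical bars are list medians, and the number tested stands in brackets. The age pathway list lay on the lower side with a median of -0.87, and the unnamed 24-nucleotide list had a median of 0.39.

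In the age pathway, where miR156 acts on SPL factors and miR172 on AP2-like factors in the passage from juvenile to adult growth, the 7 of 17 sequences tested (with miR535) had lower fitted levels, with a median of -0.87, and 0 were nominally lower. Under the scaling outside miR166, 5 of the 7 were lower. The most abundant, mdm-miR535d and gma-miR156k, had means of 177 and 105 CPM at Stage 3 and 74.2 and 57.8 CPM at Stage 4, with overlap. The 6 of 11 immune receptor regulators tested had a median of -0.95, with 2 nominally lower, mdm-miR482b and mdm-miR482c. Under the scaling outside miR166, 4 of the 6 had a lower fitted level. mdm-miR2118b, for example, was at means of 351 and 302 CPM. The auxin list (miR160, miR167, miR390 and miR393) had 12 of 25 sequences tested, 6 of them lower, with a median of 0.13. Of these, 1 was nominally higher and 1 nominally lower. The median was 0.98 outside miR166 and 0.94 without library L, but -0.78 with the study's total reads and -0.43 with the 6 ecodormancy libraries. mdm-miR167g was at means of 556 and 313 CPM. The miRNAs of the small RNA machinery itself, miR162 on DCL1, miR168 on AGO1 and miR403 on AGO2, had 5 of 13 sequences tested, 4 of them with a higher fitted level, and a median of 0.32, and 0 were nominally higher or lower. With the study's total reads, 3 of the 5 were lower with a median of -0.03, and without libraries H and L 3 of 5 were lower with a median of -0.30. mdm-miR162a and mdm-miR403a, for example, were at means of 146 and 250.4 CPM at Stage 3 and 206 and 204 CPM at Stage 4.

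The nutrient and copper families (miR395, miR398, miR399, miR408 and miR827) were rare, with means from 3.02 to 29.5 CPM. The list also holds miR169, of which mdm-miR169f had counts too low to test. Of the 5 tested, out of 12, 4 had a higher fitted level with a median of 0.86, and 0 were nominally higher or lower. The median was 0.55 with the study's total reads and 1.73 under the scaling outside miR166. Of the 22 apple and Rosaceae sequences tested, out of 42, 12 had a lower fitted level, the median was -0.09, and 1 was nominally higher and 3 nominally lower. The abundant mdm-miR1511 among them was at means of 25410 and 17423 CPM, with a log2 fold change of -0.54 and a standard error of 0.42. The other leading members of this list, from mdm-miR3627b to mdm-miR11015, had unadjusted p between 0.0825 and 0.934 in edgeR's quasi-likelihood test. For sequences such as mdm-miR7127a and mdm-miR10998 the counts were too low to test. Of the 20 unnamed sequences of 20 to 23 nucleotides, 14 had a lower fitted level with a median of -0.76, but 9 of 18 did under the scaling outside miR166 with a median of -0.03, and the median was -0.28 with the 6 ecodormancy libraries alone. Of the 93 unnamed 24-nucleotide sequences tested, out of 96, 64 had a higher fitted level with a median of 0.39, and 4 were nominally higher or lower (4.30%), 2 in each direction. The remaining 9 of 27 sequences tested belong to other families, of which 1 was nominally lower, mtr-miR4414a-5p. The 24-nucleotide median was above that of all sequences under each scaling, from 0.20 above it outside miR166 to 0.44 above it with the study's total reads. Its size rested on single libraries, with a median of 1.01 without H, 0.78 without L, 0.11 without I, 0.16 without K, 0.21 without G and 1.09 without H and L.

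Summed by family, reads that the counting may have split between near-identical members fall together. Of 163 families and single sequences, 1 had an adjusted p under 0.05 (0.613%), again t11329296_x5768, and 18 were nominally different (11%), 5 higher (3.07%) and 13 lower (7.98%). Their median log2 fold change was 0.30. The lower side held miR7121 at a log2 fold change of -1.75, miR858 at -1.60, miR164 at -1.59, miR171 at -1.44, miR4414 at -1.41, miR2910 at -0.97 and miR482 at -0.92. The signs of these 7 families were negative under each scaling, with miR482 between -1.40 and -0.31. The large families differed less, with miR159 at -0.63, miR319 at -0.29, miR396 at 0.00 and miR166 at 0.61, and these values depended on the scaling. Under the scaling outside miR166, miR159 was at -0.05, miR319 at 0.24, miR396 at 0.53 and miR166 at 1.09 (edgeR's quasi-likelihood test, unadjusted p = 0.00757, adjusted p = 0.386 for miR166). By the total of mature reads miR166 was at 0.19, and without library L it was at -0.03. Without library H, 14 families and single sequences had an adjusted p under 0.05 in edgeR's quasi-likelihood test. Among these were miR171 at -2.28 (adjusted p = 0.00108), miR7121 at -2.57 (adjusted p = 0.00108) and miR159 at -1.30 (adjusted p = 0.0410), and also the ribosomal miR2910 at -1.78 (adjusted p = 0.00709).

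The miR166 family took most of the mature reads in each library. Its share of mature reads was 72.9% in library G, 79.6% in H and 66.2% in I, and 78.4% in J, 79.8% in K and 91.4% in L. J lay below H, so the stages overlapped. The means were 72.9% ± 6.66 and 83.2% ± 7.14 (SD, n = 3 each), a difference of 10.3 percentage points (exact permutation test, two-sided p = 0.20, adjusted p = 0.54 over 9 shares, n = 3 each). Such a test of 3 against 3 libraries cannot give a p below 0.10. Without library L the difference was 6.20 points, and leaving out the others gave up to 13.6 points.

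**Figure D5:**
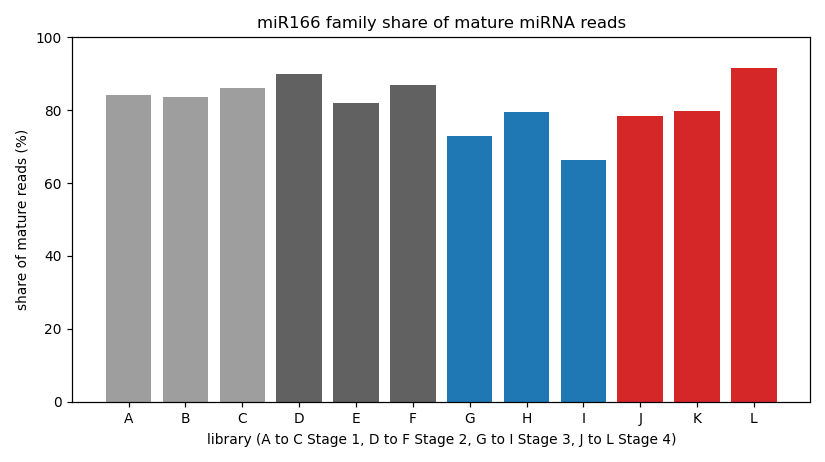
Share of the miR166 family in the mature reads of each library, in percent, with bars from 0 and colours for the stages. The Stage 3 libraries lay between 66.2% and 79.6% and the Stage 4 libraries between 78.4% and 91.4%.

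The other shares of mature reads did not separate the stages either. Sequences of 21 nucleotides took 91.4% ± 1.57 at Stage 3 and 94.1% ± 2.60 at Stage 4, those of 22 nucleotides 3.74% ± 1.70 and 2.06% ± 1.20, and those of 24 nucleotides 1.44% ± 0.792 and 1.25% ± 0.762 (SD, n = 3 each). Their exact permutation p values were 0.20, 0.30 and 0.80, two-sided. Outside the miR166 family, 24-nucleotide sequences took 11.5% of the reads in library H against 4.08% in G and 2.58% in I, and 8.76%, 7.15% and 4.76% in J, K and L. H therefore had the highest 24-nucleotide share of the 6 libraries. Reads that begin with U made up 92.0% ± 0.674 and 93.7% ± 3.18 (SD, n = 3 each), with an exact permutation p of 0.50, two-sided.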

How the data were processed

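The authors mapped HiSeq reads of 12 TraPR libraries to GDDH13 v1.1 and counted reads per mature sequence with Mir-Island. They deposited these raw counts beside normalized values, and the raw counts were used here. The submitters' processing notes name CASAVA and Bowtie 0.12.9. Trimming, mismatches allowed and the treatment of reads with several loci are not given in the sources used here. A table of 254 known sequences and a table of 199 hairpin loci were joined into 370 distinct sequences, 38 of them in both. The columns match a stage but no replicate number. Another 48 columns with a per-library value, the opposite-arm reads and the authors' normalized values, were not used. Groups were taken from the labels.

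The count test was that of edgeR 4.0.16 (R 4.3.3), with filterByExpr (minimum count 10, minimum total 15), TMM, 1 quasi-likelihood model with a mean for each of the 4 stages, and Benjamini-Hochberg adjustment over all sequences tested. P values measure the spread between 3 libraries per stage, each a separate pool of buds. The script was tested on simulated counts. Shares were compared by exact permutation of all 20 splits. Python 3.11.15, pandas 2.3.3, SciPy 1.17.1 and matplotlib 3.10.9 were used, and DESeq2 1.42.0 as an alternative. Alternatives were other scalings, filters, tests and subsets of libraries. The total reads of the study and the fit without libraries H and L were added after the data were seen.

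The members and lists were chosen with earlier results of these data known. Sequences were named if called at an adjusted p under 0.05, if at an unadjusted p of 0.05 or less without overlap and among the 12 smallest p of their direction, if on the study's list of 20, if leading a listed family, or if opposite to such a sequence in a hairpin. Other sequences are named for context and were chosen after their values were seen. The position of a locus within genes of GDDH13 was not analysed here.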

Additional observations from a re-analysis of the deposited data

How the results depend on the processing

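No paired analysis was possible because the count columns carry no replicate numbers. Scaling by the library totals behind the authors' normalized values and the comparison of opposite-arm reads were not run, because their columns were not used. Rare small RNAs limit the comparison, since a read count of 0 allows several CPM, and with 3 libraries per stage 1 library can decide a call. For each change below, the cause was not tested. The counts of sequences at an adjusted p under 0.05, and higher and lower at an unadjusted p of 0.05 or less, were 1, 7 and 21. They were 1, 11 and 20 with median-of-ratios factors, 1, 4 and 15 with the total of mature reads, 1, 20 and 4 with reads outside miR166, and 2, 4 and 27 with the study's total reads. They were 3, 20 and 19 without a filter, 5, 9 and 13 with at least 10 reads in every library, 3, 11 and 23 with edgeR's likelihood ratio test, and 7, 16 and 22 with DESeq2. They were 1, 11 and 13 with the 6 ecodormancy libraries, 0, 9 and 7 with the known table, and 18, 16 and 29 without libraries H and L. With a library left out they ranged from 0 to 10, from 3 to 17 and from 12 to 22, with the nominally higher count at 12 without A, C or F, 16 without D, 15 without J and 3 without G. For family sums, the counts of 1, 5 and 13 became 0, 3 and 10 with the total of mature reads, 1, 8 and 3 outside miR166, 0, 4 and 21 with the study's total reads, 5, 8 and 19 without a filter, 2, 10 and 9 with at least 10 reads in every library, and 10, 9 and 19 with DESeq2. With a library left out they ranged from 0 to 14, from 3 to 11 and from 9 to 27, with 10 at an adjusted p under 0.05 without E, 14 without H and 0 without I, J, K or L. The sign of mdm-miR5225c (log2 fold change -0.06) turned to 0.067 with median-of-ratios factors and with DESeq2, 0.69 outside miR166, 0.15 without a filter and with the 6 libraries, 0.10 with at least 10 reads in every library, 0.44 with the known table and 0.012 with similar sequences merged. That of mdm-miR159a (-0.24) turned to 0.49 outside miR166, 0.055 without a filter, 0.045 with the 6 libraries and 0.15 with the known table. With a library left out they ranged from -0.42 to 0.28 and from -0.46 to 0.14. With similar sequences merged, the block of 33 sequences that holds ptc-miR159d (1.26 on its own) was at -0.60. The sign of sit-miR05-npr (0.50) turned to -0.13 without libraries H and L. mdm-miR858 and mdm-miR7121e had an adjusted p under 0.05 without a filter (1.20e-04 and 0.00597) and with DESeq2 (0.0284 each).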
